A study of Homo sapiens with 2 samples.

Results

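The genes described here encode the proteins of the mitochondrial ribosome that carry an MRPL or MRPS symbol. They were taken as all protein-coding genes whose symbol is MRPL or MRPS followed by a number and whose RefSeq transcript is named by a probe of the array. This gave 77 genes, read by 91 probes, among 41174 genes and transcripts on the array, of which 18196 are protein-coding. All 77 had a probe well above background on both arrays, against 21000 of all genes and transcripts. Those that passed on 1 array or both, 23752 in all, are called measured below. Of the 77 genes, 51 belong to the large subunit and 26 to the small subunit. The large-subunit count includes MRPS30 and MRPS18A, which keep small-subunit symbols but are mL65 and mL66 of the large subunit in the structural nomenclature.

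Gene expression was profiled in HepG2 cells, a human cell line from a liver tumour, on 1-colour Agilent arrays, to compare cells given hawk tea extract (HTE), from a caffeine-free herbal tea, with solvent-treated controls. The control cells received DMSO at 1‰ and the treated cells received HTE, both for 24 h. The labels give the HTE dose as 200 µg/mL, whereas the sample name stored with the deposited HTE array carries 300. The study's text gives the higher of these doses for the array experiment. Each condition had 1 array, both from 1 slide, so no difference between DMSO and HTE has a replicate check and no p-value is given.

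Mitochondrial ribosomes translate the few proteins that mitochondrial DNA encodes, all of them core subunits of the respiratory chain and ATP synthase. Their RNA comes from the mitochondrial genome, but every protein of the particle is encoded in the nucleus, made in the cytosol and imported. Part of these proteins descend from bacterial ribosomal proteins, and the others were gained in the mitochondrial lineage, many of them at the central protuberance and the polypeptide exit of the large subunit.

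On each array 58717 spots were not controls. Of these, 60.6% on the DMSO array and 56.6% on the HTE array were well above background, and none was saturated. Values below are background-corrected signal intensities and, for ratios, log2 of the signal after division by the 75th percentile of its array, which was 4020 for DMSO and 3570 for HTE. A log2 ratio is HTE minus DMSO on that scale. All 11 hepatocyte-like markers checked were well above background on both arrays, with a summed signal of 781940 for DMSO and 749350 for HTE. Of the fibroblast markers 1 of 6 was well above background on both arrays, with summed signals of 689 and 404. Of the blood cell markers it was 3 of 6, with summed signals of 8522 and 6943, and CD3E, HBB and LYZ were not measured. The sums do not show single markers. FGA of the hepatocyte-like list (log2 ratio -1.11) and CD14 of the blood cell list (-1.77) were at least 2-fold lower. No measured marker was at least 2-fold higher. The part of these markers in the ratios was not tested.

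Mitochondrial ribosomal protein genes were strongly detected and differed little between the arrays. Signals ran from 3043 to 99128 on the DMSO array and from 3441 to 89683 on the HTE array, and 76 of 77 genes lay above the 75th percentile of both. The median log2 ratio was -0.10, with a quartile range from -0.19 to 0.0091, and the extremes were 0.724-fold for MRPS16 and 1.27-fold for MRPL38. As the RNA came from whole cultures, less RNA per cell and fewer cells of a kind cannot be told apart. The study's text also reports somewhat reduced cell viability at the dose it gives for the array experiment. The part of this in the ratios was not tested.

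The small differences leaned to one side. On the HTE array 23 of 77 genes (29.9%) were higher and 54 (70.1%) were lower, where 45.7% of all genes measured were higher and 49% were lower (the remainder were below background on 1 array with no measurable fold). No member was at least 2-fold higher or at least 2-fold lower, against 5.25% and 3.03% of all genes measured. None passed 1.5-fold in either direction, against 23% of all genes measured. This depends on the scaling. Without scaling MRPS16 (log2 ratio -0.64), MRPS17 (-0.61) and MRPL17 (-0.60) were lower by more than 1.5-fold, and under spike-in scaling every member was. Before division by the 75th percentile 73 of 77 signals (94.8%) were lower on the HTE array, against 66.2% of all genes detected on both.

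The scatter among members was also narrow. The interquartile range of their ratios was 0.20, against 0.56 for all genes measured, and 57 of 77 (74.0%) lay within 0.25 of 0, against 46.3%. Bright probes scatter less. Among the 6973 protein-coding genes above the 75th percentile on both arrays, a comparison chosen after the values were seen, the interquartile range was 0.41, the median -0.019 and the share within 0.25 of 0 was 57.9%. Of these 6973 genes 52.5% were lower on the HTE array. At least 2-fold higher were 92 and at least 2-fold lower 81, and 811 passed 1.5-fold in either direction.

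**Figure D1:**
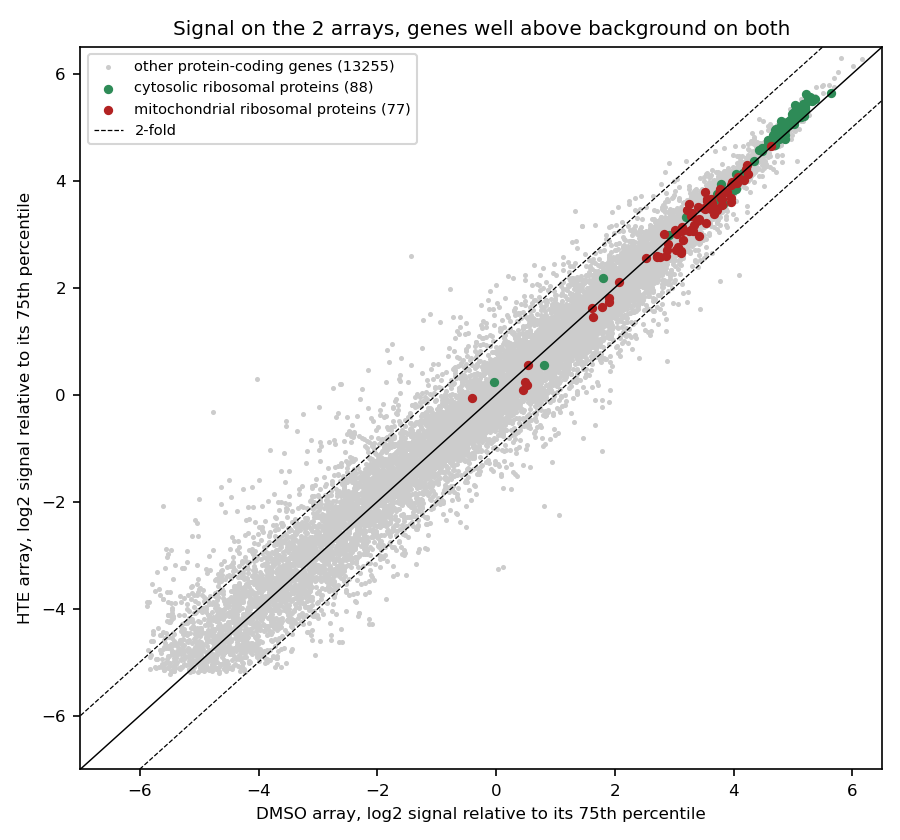
Signal of each gene on the DMSO array (horizontal) and the HTE array (vertical), as log2 of the signal relative to the 75th percentile of the array. Grey points are other protein-coding genes, red points the 77 mitochondrial ribosomal protein genes and green points cytosolic ribosomal protein genes; all red points lie between the dashed 2-fold lines, 54 of them below the solid line of equal values.

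The error of a single ratio sets how these values can be read. Over replicate spots of a probe the SD of the log2 ratio had a median of 0.051 (688 probes), and over different probes of a gene it had a median of 0.16 (3759 genes). The error estimated by the scanner software amounted to 0.20 for the ratio of every member. It ran only from 0.20403 to 0.20432 whatever the signal, and was not reduced for probes with several spots. For these genes it therefore acts as a fixed cutoff and not as an error of the single probe. The ratio exceeded that estimate in 21 of 77 genes, of which 17 (22.1%) were lower and 4 (5.19%) were higher on the HTE array. Of all genes detected on both arrays 30.3% were lower and 29.9% higher by more than their own estimate. Past 2 times the estimate were 3 members (3.9%), MRPS16, MRPS17 and MRPL17. The share of all genes past that limit was not counted. None of these errors covers the spread between cultures, which 1 array per condition does not show.

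**Figure D2:**
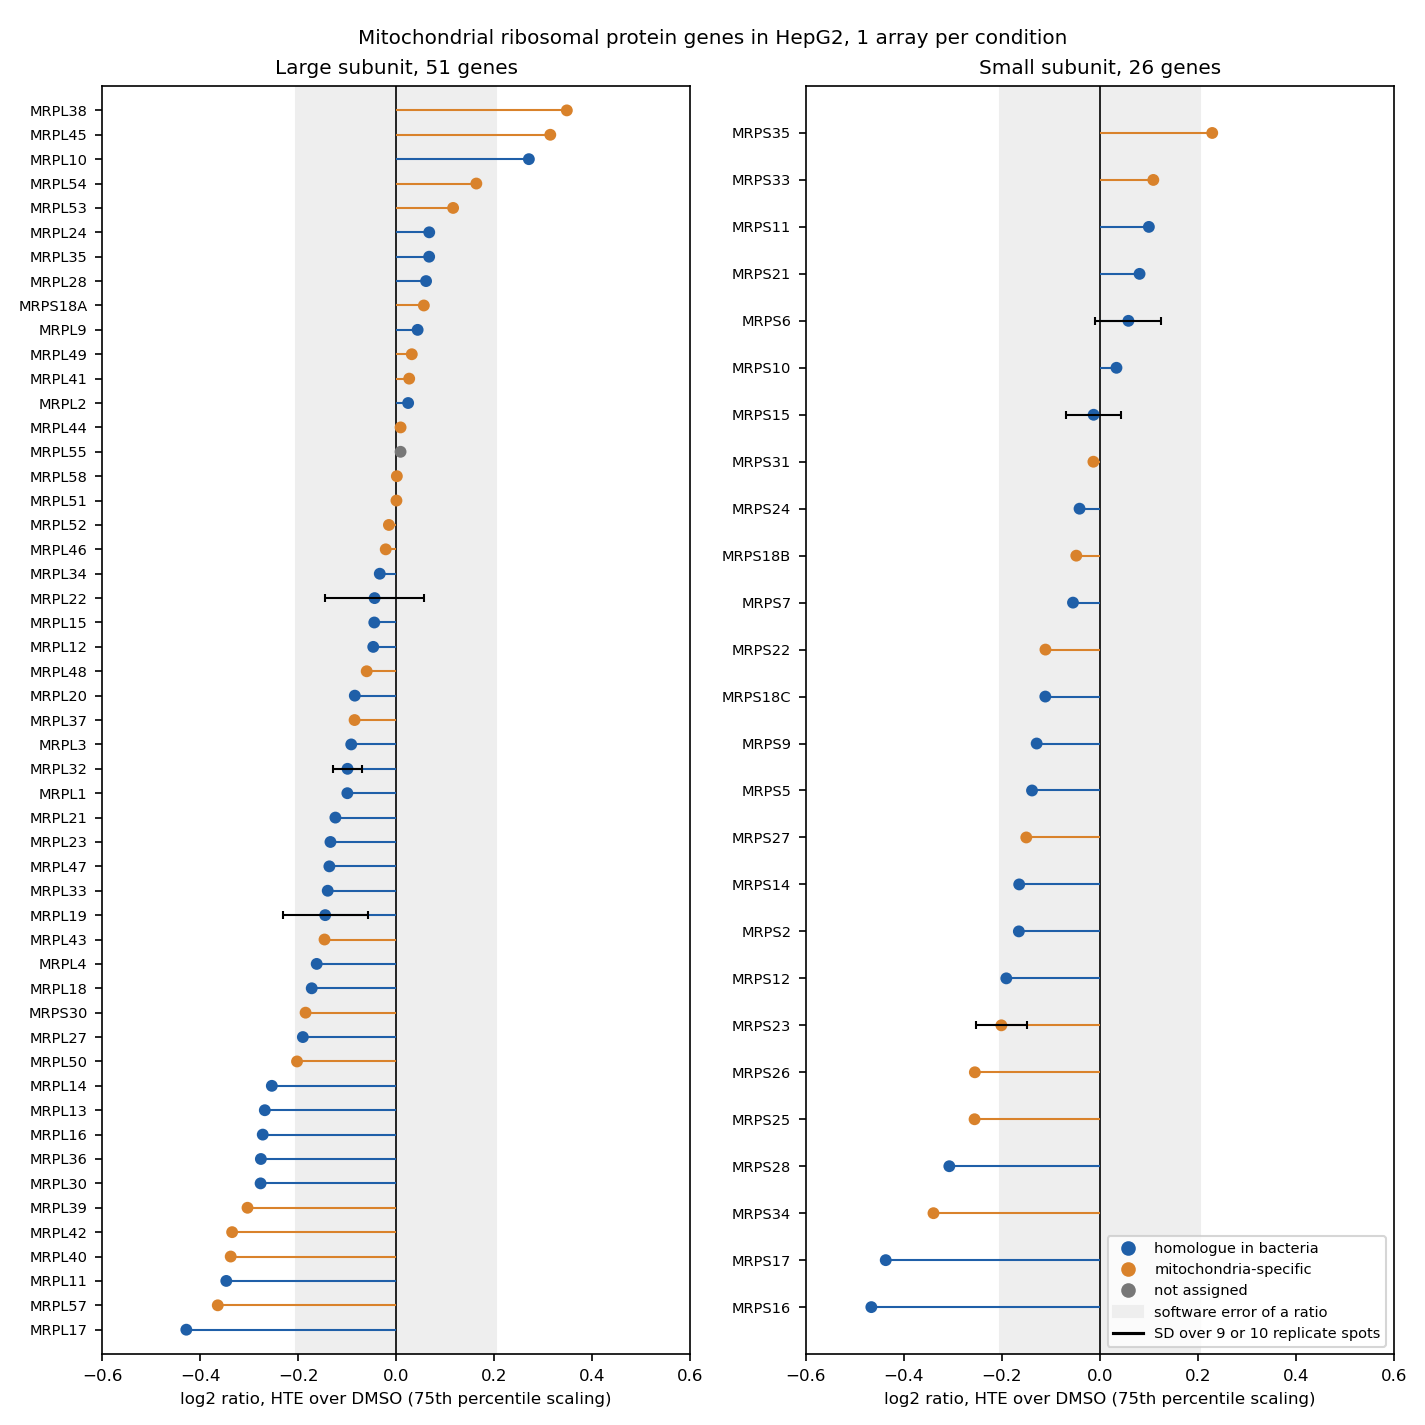
Log2 ratio of HTE over DMSO (horizontal) for each of the 51 large-subunit and 26 small-subunit genes, ordered by value, with colours for proteins with a bacterial homologue, mitochondria-specific proteins and MRPL55, which was in neither list although its structural name (bL31m) marks a bacterial homologue. The grey band is the software error of 0.20 and black bars are the SD over replicate spots where a probe was printed 9 or 10 times; 17 points lie left of the band and 4 right of it.

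For the 26 small-subunit genes the ratios centred on -0.12 (median, log2), and 6 of them were higher on the HTE array. The 16 with bacterial homologues had a median of -0.12 with 4 higher, and the 10 mitochondria-specific ones a median of -0.13 with 2 higher. By brightest probes both of the lowest values of the family were in this subunit, which decodes the message. With the mean over probes the lowest was MRPS17 (-0.44), and with second probes it was MRPL19 of the large subunit (-0.54). MRPS16, a homologue of an early-binding bacterial protein, had signals of 34678 with DMSO and 22296 with HTE, a log2 ratio of -0.47. MRPS17, which binds the small-subunit rRNA, read 42711 with DMSO and 28025 with HTE, a ratio of -0.44. A second, dimmer MRPS16 probe gave 11694 and 9637, a ratio of -0.11, so the 2 probes shared a direction but not a size. MRPS34, a mitochondria-specific protein needed for a stable small subunit, read 46816 and 32865, a ratio of -0.34.

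At the other end of the small subunit was MRPS35, with 37370 on the DMSO array and 38916 on the HTE array, a log2 ratio of 0.23. MRPS33, also mitochondria-specific, read 46979 and 45010, a ratio of 0.11, and MRPS11, a bacterial-type protein of the platform, read 39491 and 37600, a ratio of 0.10. The last 2 had lower raw signals on the HTE array and became higher through division by the 75th percentile. Of the small-subunit genes only MRPS35 was above the software error on the upper side.

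For the 51 large-subunit genes the median was -0.085 (log2), and 17 of them were higher on the HTE array. The 29 with bacterial homologues had a median of -0.12 and 6 higher, while the 21 mitochondria-specific ones had a median of -0.015 and 10 higher. The difference between these lists was not tested. The lowest bacterial-type value was that of MRPL17, with 34654 and 22873, a ratio of -0.43, and the highest that of MRPL10, with 46036 and 49334, a ratio of 0.27.

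The L7/L12 stalk recruits translation factors to the ribosome, and its 4 genes went in both directions. MRPL11, at the stalk base, read 62085 with DMSO and 43363 with HTE, a log2 ratio of -0.35. MRPL10, which holds the MRPL12 copies, gave 0.27 with the probe above and 0.62 with a second probe that read 6931 and 9478. MRPL12 itself read 65900 and 56664, a ratio of -0.047, and MRPL53 read 42331 and 40752, a ratio of 0.12. Their median of 0.035 turned negative under scaling to the array median (-0.045), without scaling (-0.14), under spike-in scaling (-1.18) and with second probes (-0.013).

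The central protuberance, which faces the small subunit and the tRNAs, had a median of -0.060 over 9 genes, with 2 higher. MRPL57 was its lowest, with 5498 and 3794, a ratio of -0.36, followed by MRPL40, a gene of the chromosome 22 region deleted in velocardiofacial syndrome, with 33010 and 23200, a ratio of -0.34. MRPL38 was its highest, with 3043 and 3441, a ratio of 0.35. By brightest probes it was also the highest of the family, which became MRPL10 (0.45) with the mean over probes and MRPS18C (0.71) with second probes. It was also the member that did not lie above the 75th percentile of both arrays.

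The 8 genes of the polypeptide exit, where new membrane proteins leave the ribosome, had a median of -0.089 with 3 higher. MRPL17 was the lowest of them. MRPL45, the protein that lies against the inner membrane at the exit, read 38105 and 42091, a ratio of 0.31, and its second probe gave 0.33. MRPL39 stood at -0.30 (51233 and 36874), with -0.54 from its second probe.

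Among the remaining large-subunit genes MRPL42 read 5749 and 4049, a ratio of -0.33, and MRPL54 read 28640 and 28493, a ratio of 0.16. The 3 MRPS18 paralogues are related proteins at separate places in the particle, of which the lists above counted only MRPS18C as a bacterial homologue, after its structural name. MRPS18C read 55308 and 45483 (ratio -0.11), MRPS18B 45826 and 39374 (ratio -0.048) and MRPS18A 39040 and 36059 (ratio 0.057). A second MRPS18C probe, with signals of only 876 and 1275, gave 0.71, opposite in sign to the brighter probe. With second probes the paralogues' median turned from -0.048 to 0.11.

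Of the 12 members listed as tied to inherited respiratory chain deficiency, 11 (91.7%) were lower on the HTE array, where 70.1% of the family and 49% of all genes measured were lower. The other, MRPL44, was higher by 0.0091 (12312 and 11004). The median of the list was -0.16. It was chosen with earlier results known, so its share and median depend on which members it holds. Besides MRPS16 and MRPS34, the lowest were MRPS28 at -0.31 (33712 and 24202), MRPS25 at -0.26 (5622 and 4183) and MRPS23 at -0.20 (39390 and 30444). MRPS2, MRPS14, MRPS22, MRPL3, MRPS7 and MRPL12 lay between -0.17 and -0.047. Like MRPS23 and MRPL44, they were inside the software error.

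Probes printed several times show the technical part of this spread directly. For 6 members the brightest probe had 9 or 10 usable spots on both arrays. On the log2 scale relative to the 75th percentile, MRPS23 ran from 3.24 through a median of 3.30 to 3.33 on the DMSO array and from 3.05 through 3.09 to 3.17 on the HTE array, with no overlap. Its ratio was -0.20 ± 0.051 (SD, n = 10 spots).

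On the same scale MRPL19 ran from 3.37 to 3.45 on the DMSO array and from 3.04 to 3.35 on the HTE array, also without overlap, with a ratio of -0.14 ± 0.087 (SD, n = 10 spots) and -0.54 from a second probe. For MRPL32 the lowest DMSO spot (3.8601) lay just above the highest HTE spot (3.8587), and the ratio was -0.099 ± 0.030 (SD, n = 9 spots). The spots of the other members overlapped. MRPL22 gave -0.044 ± 0.10 and MRPS15 -0.012 ± 0.057 (SD, n = 10 spots each), with 6 and 5 of 10 spots lower, so neither differed from 0 beyond the spread between its spots. MRPS6 gave 0.060 ± 0.067 (SD, n = 9 spots), with 1 spot lower, a mean within 1 SD of 0.

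Before division by the 75th percentile the spots of MRPL22 (59633 to 70581 with DMSO, 50726 to 55958 with HTE) and MRPS15 (61066 to 66438 and 53706 to 57099) did not overlap either, so their overlap depends on the scaling. These spots share 1 hybridisation per condition and are no replicates of the treatment. The share of all probes with replicate spots that showed no overlap was not counted, so its absence is not particular to these members.

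**Figure D3:**
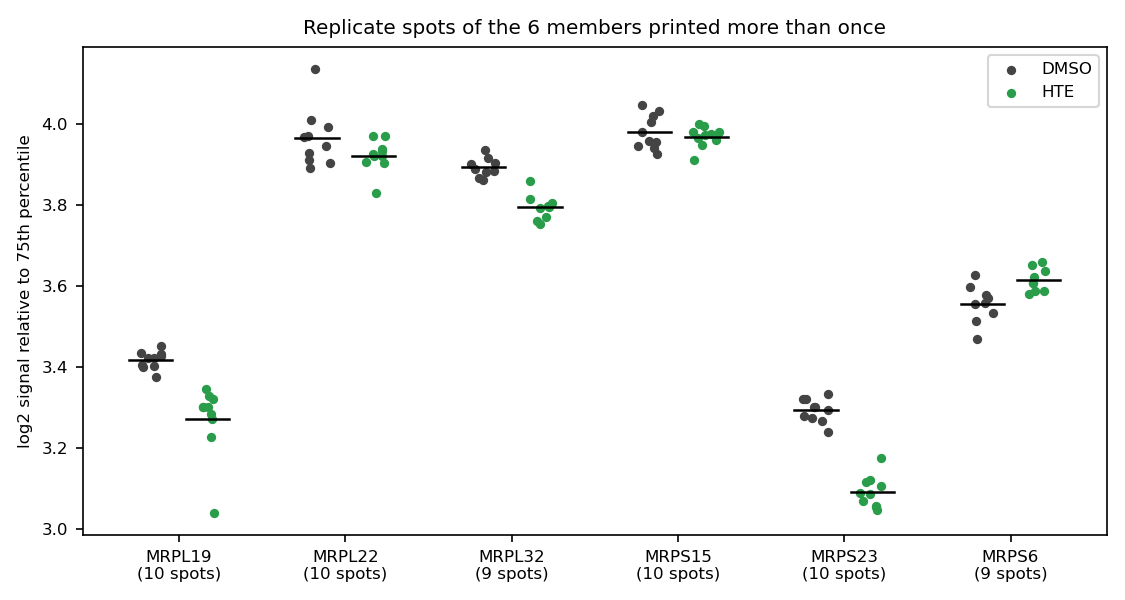
Log2 signal relative to the 75th percentile of the array (vertical) for every usable replicate spot of the 6 members printed more than once, DMSO in grey and HTE in green, with bars at the means. On this scale the MRPL19, MRPL32 and MRPS23 spots do not overlap between the arrays, and those of MRPL22, MRPS15 and MRPS6 do. How often this holds over the whole array was not counted.

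Of the 14 members with 2 probes, 10 had both on the same side of 0 and 4 did not, namely MRPL43 (-0.15 and 0.034), MRPL52 (-0.015 and 0.13), MRPS18B (-0.048 and 0.11) and MRPS18C. The median absolute difference between the probes of a gene was 0.17, larger than the median ratio of the family. The 2 members with any probe past 1.5-fold were MRPL10 and MRPS18C, in each case the dimmer probe.

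Of the 4 lists of other proteins of mitochondrial gene expression, 3 had medians between -0.14 and -0.12. The list of ribosomal proteins with other symbols had a median of 0.0085. These lists, chosen with earlier results known, hold 58 measured genes together, with a median of -0.12. Of them 44 (75.9%) were lower and 14 (24.1%) higher, against 49% and 45.7% of all genes measured. Past 1.5-fold were 4, against 23% of all genes measured. None passed 2-fold, against 5.25% of all genes measured on the higher side and 3.03% on the lower. For 27 assembly and rRNA-modifying factors the median was -0.14, with 8 higher. Their ratios scattered more widely, with an SD of 0.32 over genes against 0.17 for the ribosomal proteins. MTERF4, which brings a methyltransferase to the large subunit, read 8037 and 4479, a ratio of -0.67, and RPUSD3, a pseudouridine synthase, read 3869 and 5298, a ratio of 0.62. For 14 translation factors the median was -0.14 (-0.056 with the mean over probes or with second probes) with 3 higher, from GUF1, a homologue of a bacterial elongation factor, at -0.45 (11576 and 7534) to OXA1L, the insertase that receives new membrane proteins, at 0.44 (32150 and 38646).

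Mitochondrial transcription and RNA processing had a median of -0.12 over 13 genes, with 1 higher. PNPT1, an exoribonuclease, was lowest at -0.40 (15309 and 10298), and TEFM, the transcription elongation factor, was highest at 0.24 (5856 and 6161). Ribosomal proteins with other symbols gave 4 measured genes with a median of 0.0085, which was negative under quantile normalization (-0.057), scaling to the array median (-0.072), no scaling (-0.16) and spike-in scaling (-1.21), and 0.10 with outlier spots kept. PTCD3, an RNA-binding small-subunit protein, read 1131 and 611, a ratio of -0.72, and DAP3, a GTP-binding one, read 36008 and 36187, a ratio of 0.18. CHCHD1 had 1 probe, which had no value once outlier spots were left out, and PDF and GRSF1 had no matched probe.

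Regulators known to act on nuclear genes for mitochondrial proteins had no common direction. Their median was -0.065, with 4 of 10 higher. NRF1, a transcription factor of respiratory genes, read 548 and 288, a ratio of -0.76, and GABPB2, a partner of the ETS factor GABPA, read 497 and 585, a ratio of 0.41. The brighter GABPB1 went the other way, with 10840 and 6589, a ratio of -0.55, and -0.44 from its second probe. GABPA itself read 1985 and 2039, a ratio of 0.21. YY1 read 34844 and 30742, a ratio of -0.0095, and MYC read 32423 and 35797, a ratio of 0.31.

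**Figure D4:**
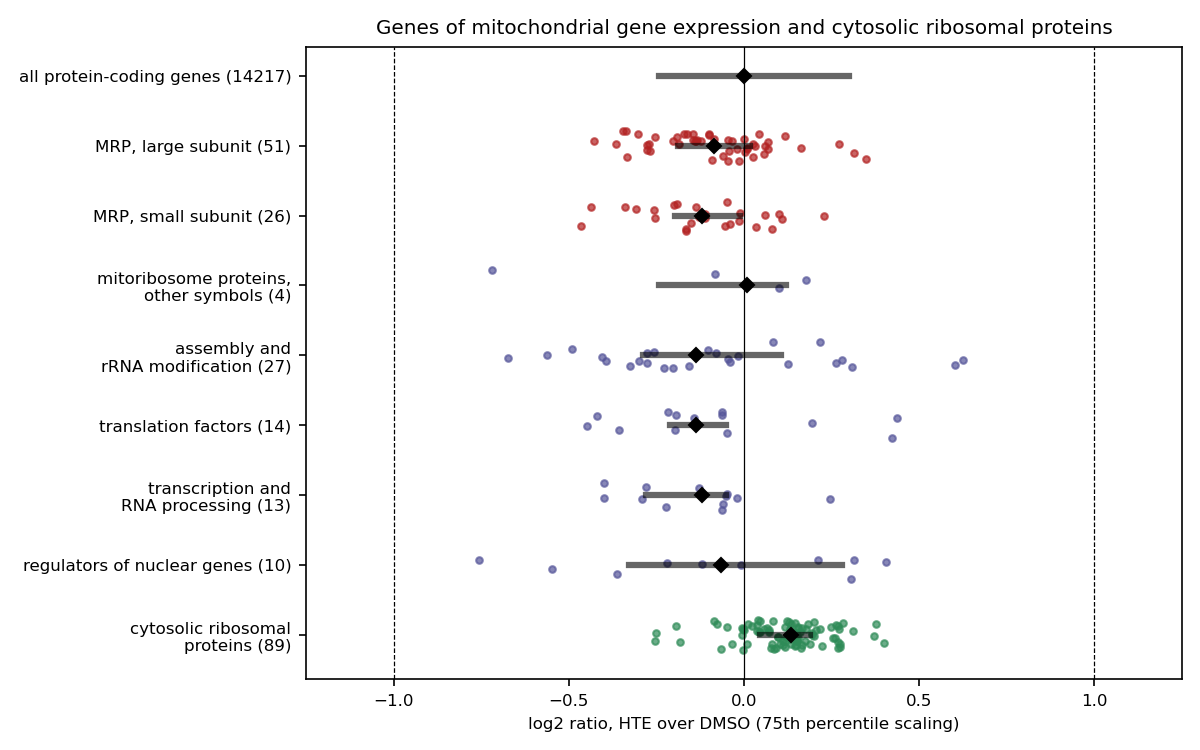
Log2 ratio of HTE over DMSO (horizontal) for the genes of each list, with the number measured in brackets, the median as a diamond and the quartiles as a bar; all protein-coding genes are given by median and quartiles alone. Medians of the large and small subunits (-0.085 and -0.12) lie left of 0 and that of cytosolic ribosomal proteins (0.13) right of it, the latter turning negative under quantile normalization, without scaling and under spike-in scaling.

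Cytosolic ribosomal proteins, the counterpart that translates nuclear messages, lay mostly above the mitochondrial ones in their ratios. The median of their 89 genes was 0.13, which turned negative under quantile normalization (-0.021), without scaling (-0.037) and under spike-in scaling (-1.08). Of these genes 75 (84.3%) were higher on the HTE array, against 45.7% of all genes measured. They ran from RPL27A at -0.25 (7059 and 5259) to RPL10 at 0.40 (149100 and 174690). The median of the mitochondrial genes was lower by a log2 difference of -0.23, and 72 of 77 mitochondrial genes lay below the cytosolic median, 63 of them below its lower quartile. With quantile normalization that difference shrank to -0.058, and under every other choice it stayed between -0.23 and -0.21. With 1 array per condition the difference was not tested.

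**Figure D5:**
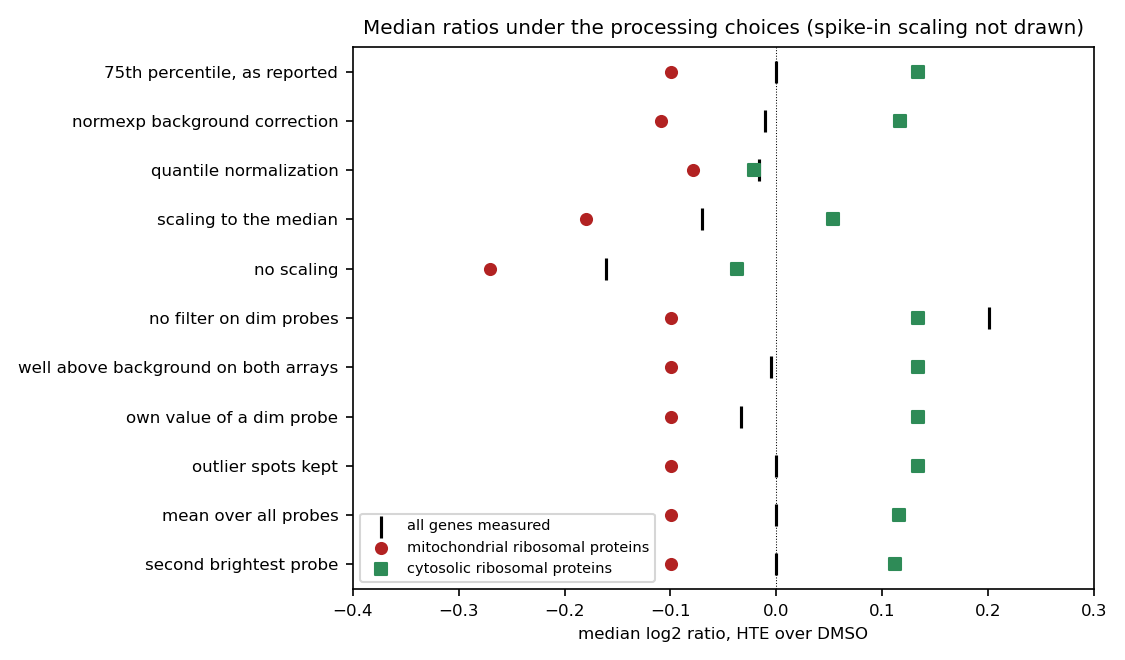
Median log2 ratio of HTE over DMSO (horizontal) for mitochondrial ribosomal protein genes (red), cytosolic ribosomal protein genes (green) and all genes measured (black) under each processing choice, without spike-in scaling. The red points stay left of 0 throughout, from -0.27 without scaling to -0.079 with quantile normalization, where the green point (-0.021) moves next to the black mark.

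What the members share in sequence was read from their promoters. RefSeq promoter windows (GRCh38.p14, 250 bases before to 50 bases after the start) were at hand for 69 of 77 members. Both strands were searched for CCGGAAG (bound by ETS factors such as GABPA), AAGATGGCG (YY1), GCGCATGC (NRF1) and CACGTG (the E-box, bound by MYC). CCGGAAG was in 29 of 69 members (42.0%), against 10.7% of all 27305 promoters and 17.7% of those of measured protein-coding genes. AAGATGGCG was in 13 (18.8%), against 1.85% and 3.58%. GCGCATGC was in 6 (8.70%), against 3.27% and 5.19%, and CACGTG in 6 (8.70%), against 7.43% and 9.83%.

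At least 1 of the 4 motifs was found in 42 members, and different motifs overlapped in none. Ratios with and without a motif lay close together. Members with CCGGAAG had a median log2 ratio of -0.092 and those without it -0.099. With and without AAGATGGCG the medians were -0.044 and -0.11, with and without GCGCATGC -0.073 and -0.10, and with and without CACGTG -0.064 and -0.10. A match is a run of letters and not a measured binding site.

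The promoters of 3 members are printed because they lie at the ends of the range and each holds a different motif. They give the 250 bases before the start on the strand of the gene, with motif letters on either strand in capitals. MRPL17 (chr11:6683341-6683590, minus strand) had GCGCATGC on 1 strand or the other at -81, -79 and -43 from the start, the first 2 overlapping. MRPL38 (chr17:75904885-75905134, minus strand) had an ETS motif at -208, and MRPL45 (chr17:38296918-38297167, plus strand) an E-box at -133.
MRPL17: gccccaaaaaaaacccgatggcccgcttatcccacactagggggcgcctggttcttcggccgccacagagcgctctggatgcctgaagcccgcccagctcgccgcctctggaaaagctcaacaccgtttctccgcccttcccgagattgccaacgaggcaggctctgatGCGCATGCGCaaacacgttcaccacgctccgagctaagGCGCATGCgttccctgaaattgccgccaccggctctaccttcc
MRPL38: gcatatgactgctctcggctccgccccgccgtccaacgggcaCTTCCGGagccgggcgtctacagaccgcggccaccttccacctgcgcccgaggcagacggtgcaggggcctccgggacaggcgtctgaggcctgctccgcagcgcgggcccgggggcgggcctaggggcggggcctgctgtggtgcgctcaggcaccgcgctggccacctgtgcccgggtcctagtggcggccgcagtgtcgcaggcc
MRPL45: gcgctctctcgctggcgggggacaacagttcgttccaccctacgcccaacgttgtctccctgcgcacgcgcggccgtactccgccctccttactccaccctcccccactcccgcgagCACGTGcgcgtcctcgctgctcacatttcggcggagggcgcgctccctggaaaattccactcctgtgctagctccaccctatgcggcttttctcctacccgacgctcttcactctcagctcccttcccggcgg

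Short sites just after the start are shown for the lowest and the highest member. MRPS16 had an ETS motif 5 bases after its start, and MRPL38 a YY1 motif 6 bases after its start, both in capitals. The windows of MRPS17 and MRPS35 held none of the 4 motifs.
MRPS16: catccgCTTCCGGagtcgag
MRPL38: ggagggAAGATGGCGgcgcc

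The 77 genes lie on 21 chromosomes and are mostly scattered. MRPL46, on the minus strand, and MRPS11, on the plus strand, start 320 bases apart. This pair had log2 ratios of -0.021 and 0.10, which differed by less than the software error of a ratio.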

How the data were processed

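Total RNA of HepG2 cells was labelled with Cy3 and hybridised to 1 Agilent array per condition. The deposited values are scanner intensities per spot, which the authors extracted with Agilent Feature Extraction (10.7 in the submitters' processing notes, 11.5.1.1 in the file headers). The processed signal, already background-corrected by that software, was used. Control and outlier spots were left out, log2 signals were scaled to the 75th percentile of each array, replicate spots were averaged, and each gene was represented by its brightest probe. A gene was measured if a probe was well above background on at least 1 array, and a dim value entered as a bound. RefSeq (GRCh38.p14) named 28174 of 50599 probes.

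With 1 array per group no test was run, and a cutoff of 2-fold was used as in the study. The steps were tested on simulated data, with shifts larger than the ratio of any member. That test does not show how well differences of the members' size are recovered. Alternatives were normexp (limma 3.58.1 in R 4.3.3, offset 50, on the median signal) and quantile normalization, other scalings, other filters and other rules for probes. Other steps used Python 3.11.15, numpy 2.4.6, pandas 2.3.3 and matplotlib 3.10.9.

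Members and gene lists were chosen with earlier results of these data known. Genes were named by rule: the 8 highest and 8 lowest members, the extremes of each list, members whose probes disagreed in sign with 1 past 1.5-fold, the MRPS18 paralogues, members tied to inherited deficiency, and listed genes without a value. GABPA, GABPB1, MYC, YY1, MRPL39, MRPL46 and members printed as replicate spots or with 2 probes were added after their values were seen. The cytosolic list left out 12 symbols, among them the RPS6 kinases and RPS19BP1.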

Additional observations from a re-analysis of the deposited data

How the results depend on the processing

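The median of the mitochondrial ribosomal protein genes was below 0 under each of the 11 other processing choices, and none of their 77 genes passed 2-fold except under spike-in scaling. It was -0.18 with 9 genes higher when scaled to the array median (38.8% of all genes higher), -0.27 with 4 higher without scaling (31.9% of all genes), and -1.32 with 0 higher (3.33% of all genes) and 73 at least 2-fold lower when scaled to the spike-in probes, which moved the median of all genes by -1.21 (no scaling moved it by -0.16, and no filter on dim probes by 0.20). Relative to the median of all genes it was -0.11 under these 3 scalings, -0.062 with quantile normalization and -0.30 without the filter. The cytosolic median turned to -0.021 with quantile normalization, -0.037 without scaling and -1.08 with spike-ins. The cause of these shifts was not tested. Among single members 8 changed sign with normexp, MRPL30 going from -0.28 to 0.16, 14 when scaled to the array median, 19 without scaling, 4 with quantile normalization, 3 with the mean over probes and 4 with second probes. Of all genes past 2-fold 63.4% were higher (1248 against 720), which became 42.2% without scaling (883 against 1209), 50.4% with own values of dim probes (1341 against 1320) and 0.873% with spike-ins (142 against 16117). No paired analysis was possible because each condition had 1 array, and no replicate could be left out for the same reason.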

Other observations

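Transcripts that carry a member's name but are not the member's message were read by their own probes. MRPL20-AS1, a noncoding transcript, read 790 with DMSO and 1292 with HTE, a log2 ratio of 0.88. For MRPL23-AS1, 3 probes gave 1.10, 0.74 and 0.53, the last with signals of 1501 and 1930. The pseudogene transcript MRPS31P5 read 246 and 365, a ratio of 0.74, and MRPL42P5 read 647 and 650, a ratio of 0.18. All 6 probes were well above background on both arrays, and these values were not tested.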
